A study of Mus musculus with 18 samples.

Results

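Pre-mRNA splicing factors were described by gene family in mouse bone marrow-derived macrophages (BMDMs) with and without a functional Prep gene. Members were all symbols of the deposited count table that began with Snrp, Sf3a, Sf3b, Srsf, Hnrnp, Prpf or U2af, or with Lsm and a digit. There were 81 such symbols among 16314, of which 21 were Hnrnp, 13 Lsm, 13 Prpf, 12 Snrp, 10 Srsf, 6 Sf3b, 3 Sf3a and 3 U2af. After a filter on low counts 79 members were among the 12021 genes tested. The remaining members were Snrpn, with 1 read in 1 Prep-/- M0 library and 0 in all other libraries, and Hnrnpa1l2-ps2, with 1 to 13 reads per library.

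Prep encodes prolyl endopeptidase, a serine peptidase. Bone marrow came from whole-body Prep-/- mice and from Prep+/- littermates on a C57BL6/J background, so the control cells carried 1 disrupted allele and no Prep+/+ cells were part of the comparison. The age of the marrow donors is not given in the sources used here. Bone marrow was cultured for 7 days with 50 ng/ml M-CSF, and the resulting cells were left unstimulated (M0), stimulated for 24 h with 50 ng/ml LPS (M1), or stimulated for 24 h with IL-4 and IL-13, each at 20 ng/ml (M2). Each of the 6 combinations of genotype and state had 3 bulk RNA-seq libraries, 18 in all. The comparisons asked how Prep loss altered the transcriptome in each state and how the response to stimulation differed between genotypes.

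Introns are removed by the spliceosome, which assembles on each intron from small nuclear ribonucleoproteins (snRNPs) and many other proteins. Sm proteins form a ring on the U1, U2, U4 and U5 RNAs, and a related ring of Lsm proteins binds U6 RNA. U2AF recognises the 3' splice site and helps to recruit the U2 snRNP, of which the SF3A and SF3B complexes are parts, whereas most Prpf proteins belong to the U4/U6.U5 tri-snRNP or act when it joins. Serine/arginine-rich (Srsf) proteins and heterogeneous nuclear ribonucleoproteins (Hnrnp) bind exons and introns and modulate which sites are used. In macrophages, alternative splicing is known to alter transcripts of the inflammatory response.

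Libraries held 19068237 to 22598279 assigned reads, with a median of 21312254, and members took 0.502% to 1.13% of them. Prep itself was at 551 to 900 normalised counts in Prep+/- libraries and at 31.2 to 68.1 in Prep-/- libraries, where a normalised count is a read count scaled to a common library size. All 8 macrophage markers were detected in every group. Their sum did not overlap between genotypes: it was 18997 to 22403 CPM (reads scaled to a common library total) in Prep+/- M0 and 30377 to 48169 in Prep-/- M0, 45750 to 47201 and 30995 to 37037 in M1, and 10025 to 12200 and 13886 to 19562 in M2. Lyz2 made up most of this sum, and the markers did not all move with it. In M1, where the sum was lower in Prep-/-, Cd68 and Mertk were higher in Prep-/- without overlap. In M0, Cd68 and Itgam overlapped between genotypes. The summed T cell, erythroid and mast cell markers were at most 0.377 CPM, and the summed dendritic cell and stromal markers at most 21.2 CPM. Granulocyte precursor markers summed to 17.2 to 22.4 CPM in Prep+/- M0 and 36.0 to 84.0 in Prep-/- M0, 22.5 to 39.1 and 17.4 to 24.4 in M1, and 10.7 to 12.7 and 14.1 to 22.5 in M2. B cell markers (3 of 5 listed genes in the table) summed to 3.01 to 4.78 and 8.66 to 11.47 in M0, 2.06 to 2.59 and 5.09 to 6.96 in M1, and 1.56 to 2.81 and 0.958 to 4.45 in M2. Summed expression of 10 proliferation genes moved with genotype and state: it was 2409 to 2627 CPM in Prep+/- M0 and 435 to 918 in Prep-/- M0, 578 to 611 and 436 to 488 in M1, and 1885 to 1907 and 580 to 1032 in M2. The part of proliferation and of these other markers in the results was not tested. Among replicates, 2 libraries stood apart by the chi-square per gene between pairs of libraries. Replicate 3 of Prep-/- M2 was at 105 from replicates 1 and 2, which were at 11.4 from each other, and replicate 3 of Prep-/- M0 was at 107 and 114, against 33.7 between replicates 1 and 2. In replicate 3 of Prep-/- M0, short transcripts were high relative to its group: the median deviation from the group mean was 0.44 on the log2 scale over 561 genes with a canonical transcript under 1000 bases and 0.76 over the 6 members of that length. In bulk RNA, fewer cells of a type and less RNA per cell cannot be told apart.

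Per kilobase of transcript, the most abundant members in Prep+/- M0 were Hnrnpa2b1 at 269 CPM per kb, Hnrnpab at 213, Snrpb, a core Sm protein, at 173, and Hnrnpa1 at 161. The lowest tested members were Lsm11, a component of the U7 snRNP that processes histone transcripts, at 2.08 CPM per kb and the U1-associated factor Prpf40b at 1.90. In Prep-/- M0 the order began with Hnrnpa2b1 at 155 CPM per kb, the SR protein Srsf5 at 135 and Snrpb at 101.

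In M0, 39 of the 79 tested members were lower in Prep-/- than in Prep+/- BMDMs and 7 were higher (edgeR's quasi-likelihood test, adjusted p below 0.05, adjusted over all genes tested). Of all genes tested, 24.2% were lower and 24.3% higher, so members were lower more often and higher less often than genes as a whole, 49.4% and 8.86% of them. In M1, 41 members were lower and 6 higher, against 16.6% and 19.7% of all genes. In M2, 19 were lower and 5 higher, against 13.1% and 11.6% of all genes. Over the members the median log2 fold change by state (M0, M1, M2) was -0.41, -0.40 and -0.20, and over all genes it was 0.02, 0.04 and 0.03. With a fold change over 1.5 also required, 26 members were lower and 2 higher in M0 (17.2% and 15.4% of all genes), 24 and 0 in M1 (10.2% and 12.3%), and 7 and 0 in M2 (9.82% and 6.37%). The values of the 3 Prep-/- libraries all lay below those of the 3 Prep+/- libraries for 38 members in M0 (27.1% of all genes), 53 in M1 (27.1%) and 41 in M2 (20.9%).

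In fits that left out 1 library, 37 to 51 members were lower in M0 and 31 to 43 in M1. The largest M0 count was found without Prep-/- replicate 3 and the smallest without Prep-/- replicate 1. The M2 count was less stable: it was 9 without Prep+/- replicate 1, 8 without Prep+/- replicate 3, 7 without Prep-/- replicate 1, 9 without Prep-/- replicate 2 and 26 without Prep-/- replicate 3. When the M2 libraries were fitted alone with the replicate number as a block, 29 members were lower in Prep-/- M2. In the same kind of fit of the M0 libraries, 26 were lower in Prep-/- M0, fewer than in any fit that left out 1 library. The few higher members depended on single libraries too: 3 were higher in M0 without Prep+/- replicate 2, Prep+/- replicate 3 or Prep-/- replicate 1, and in M1 3 were higher without Prep+/- replicate 1, 2 without replicate 2, 1 without replicate 3 and 1 without Prep-/- replicate 1. In M2, 1 was higher without each Prep+/- library in turn, without Prep-/- replicate 1 or without Prep-/- replicate 2, and 8 without Prep-/- replicate 3.

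**Figure D1:**
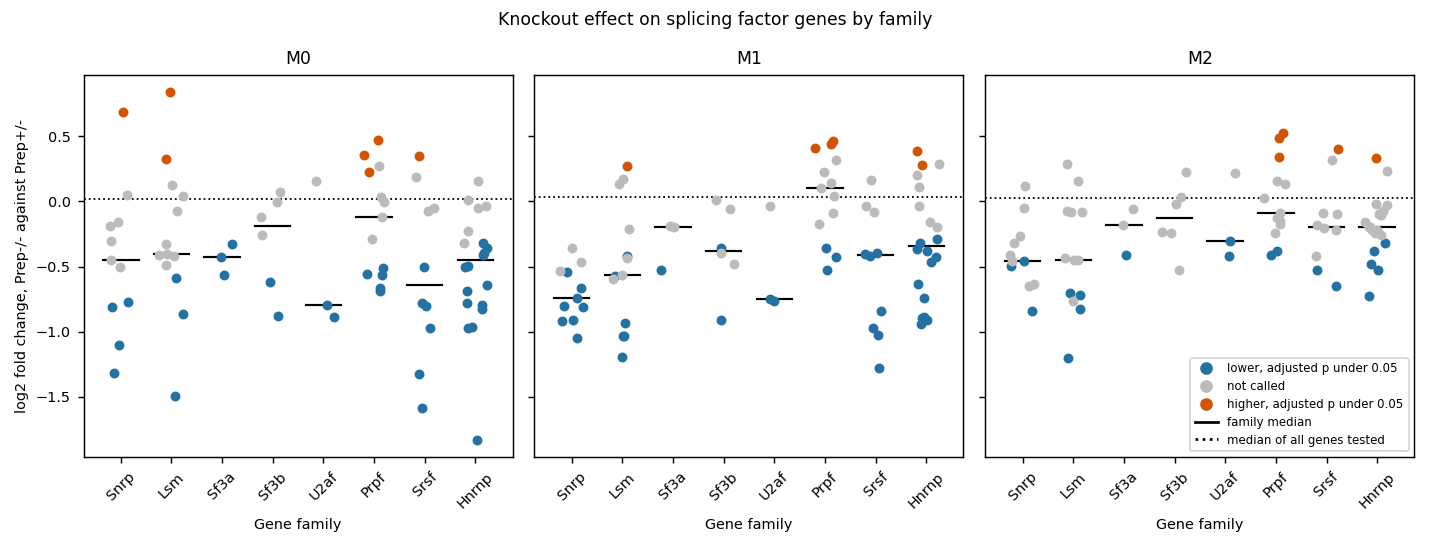
Knockout effect on each tested member, as the log2 fold change of Prep-/- over Prep+/- normalised counts (y axis), by family (x axis) and state (panels); each point is a member, blue where lower, orange where higher and grey where it did not pass the test, with solid lines for family medians and a dotted line for the median of all genes tested. Most points lie below 0 in M0 and M1, with Prpf spread on both sides, and in M2 they lie nearer to 0.

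Summed over all 81 members, TMM-scaled expression was 9508 ± 147 CPM in Prep+/- M0 and 6881 ± 418 in Prep-/- M0 (SD, n = 3). In M1 the sums were 7788 ± 225 and 5953 ± 83.1 CPM (SD, n = 3), and in M2 9639 ± 210 and 8252 ± 400 CPM (SD, n = 3). Libraries of both genotypes did not overlap in any state. The Hnrnp family made the largest contribution in every group, with 4577 ± 120 CPM in Prep+/- M0 and 3086 ± 110 in Prep-/- M0 (SD, n = 3). The U2af sum was 283 ± 7.14 against 171 ± 6.09 CPM in M0 and 274 ± 4.80 against 226 ± 18.5 in M2 (SD, n = 3). The Prpf sum overlapped between genotypes in M1 and M2, at 684 ± 40.2 against 693 ± 33.4 CPM in M1 and 772 ± 23.4 against 764 ± 20.4 in M2 (SD, n = 3).

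**Figure D2:**
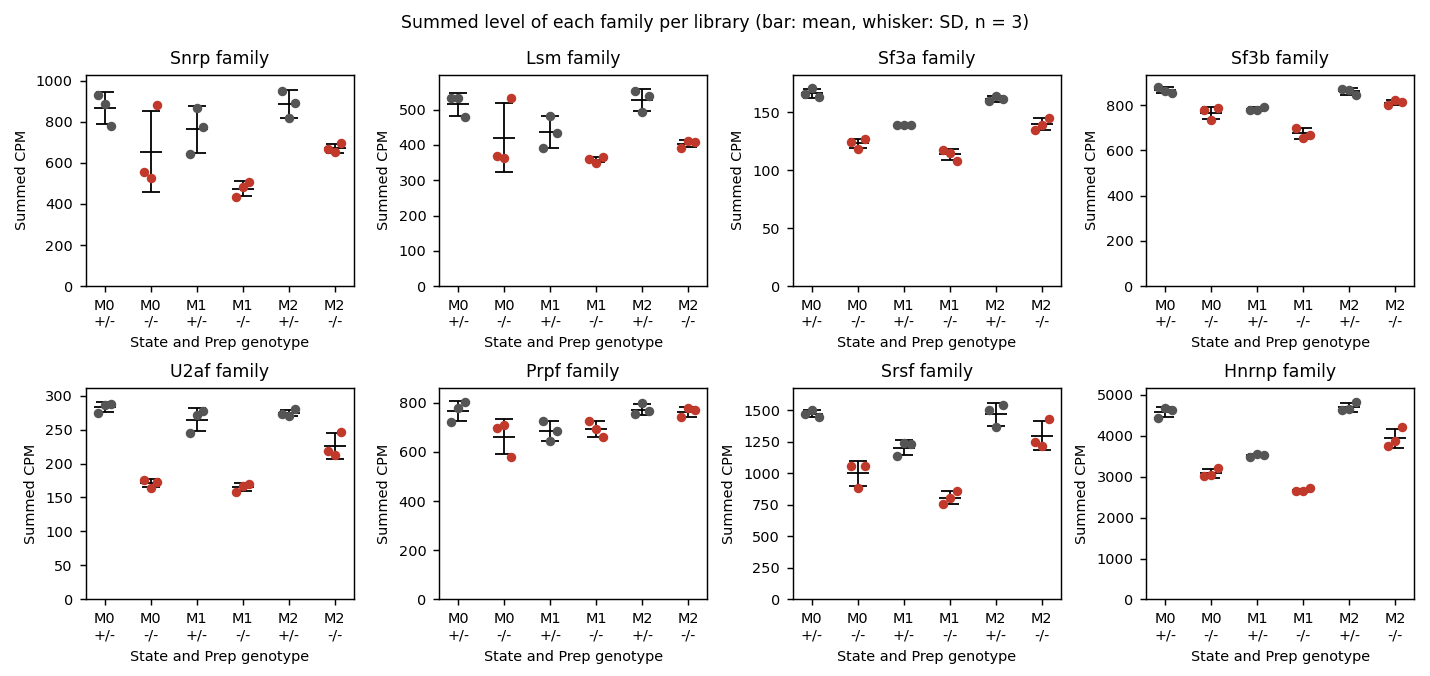
Summed TMM-scaled CPM of each family (y axis, from 0) in the 6 groups (x axis), with grey points for Prep+/- and red points for Prep-/- libraries and bars and whiskers for the mean and SD (n = 3). The Hnrnp sum falls from 4577 to 3086 CPM between genotypes in M0, whereas the Prpf sums of M1 and M2 overlap.

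By family, Hnrnp had 14, 12 and 5 of 20 tested members lower in Prep-/- M0, M1 and M2, with medians of -0.45, -0.34 and -0.20 on the log2 scale. Snrp had 4, 8 and 3 of 11 lower, with medians of -0.45, -0.74 and -0.45. Srsf had 6, 7 and 2 of 10 lower, with medians of -0.64, -0.41 and -0.19. Lsm had 3, 6 and 4 of 13 lower, and U2af 2, 2 and 2 of 3. Prpf was split: 5, 3 and 2 of 13 were lower and 3, 3 and 3 higher, with medians of -0.12, 0.10 and -0.09. Of all genes tested, 24.2%, 16.6% and 13.1% were lower and 24.3%, 19.7% and 11.6% higher in M0, M1 and M2. Near these were the lower share of Lsm in M0 and of Prpf in M2, and the higher share of Prpf in M0 and M1. Sf3a had 3, 1 and 1 of 3 lower. Sf3b had 2, 2 and 0 of 6 lower; in M2, 2 of its members were lower at an unadjusted edgeR p below 0.05 and 0 by DESeq2.

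In all 3 states 17 members were lower: Hnrnpa1, Hnrnpa2b1, Hnrnpab, Hnrnph1, Hnrnpr, Lsm2, Lsm3, Lsm6, Prpf19, Prpf31, Snrpa1, Snrpb, Snrpd3, Srsf3, Srsf7, U2af1 and U2af2. The 3 knockout comparisons share no libraries, but they come from a shared fit, and same-numbered Prep-/- M0 and M1 libraries deviated together from their group means. Of all genes tested, 4.12% were lower in all 3 states. No member was higher in all 3 states, also at an unadjusted edgeR p below 0.05 (0 members) and by DESeq2 (0 members), against 3.65% of all genes. The list of 17 depended on the M2 libraries: members lower in all 3 states numbered 8 without Prep+/- M2 replicate 1, 7 without Prep+/- M2 replicate 3, 6 without Prep-/- M2 replicate 1 and 8 without Prep-/- M2 replicate 2, against 24 without Prep-/- M2 replicate 3 and 26 without Prep-/- M0 replicate 3. In each of the 18 fits that left out 1 library, 5 of the 17 were lower in all 3 states, namely Hnrnpab, Hnrnpr, Lsm6, Snrpa1 and Snrpb. Members lower in both M0 and M1 numbered 32, which was 82.1% of the M0 list and 78.0% of the M1 list. The same overlap was not computed over all genes, so whether it is particular to the members is not known. Of the rest, 32 members were lower in 1 or 2 states, 13 were higher in 1 or 2 states, and 17 passed the test in none.

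**Figure D3:**
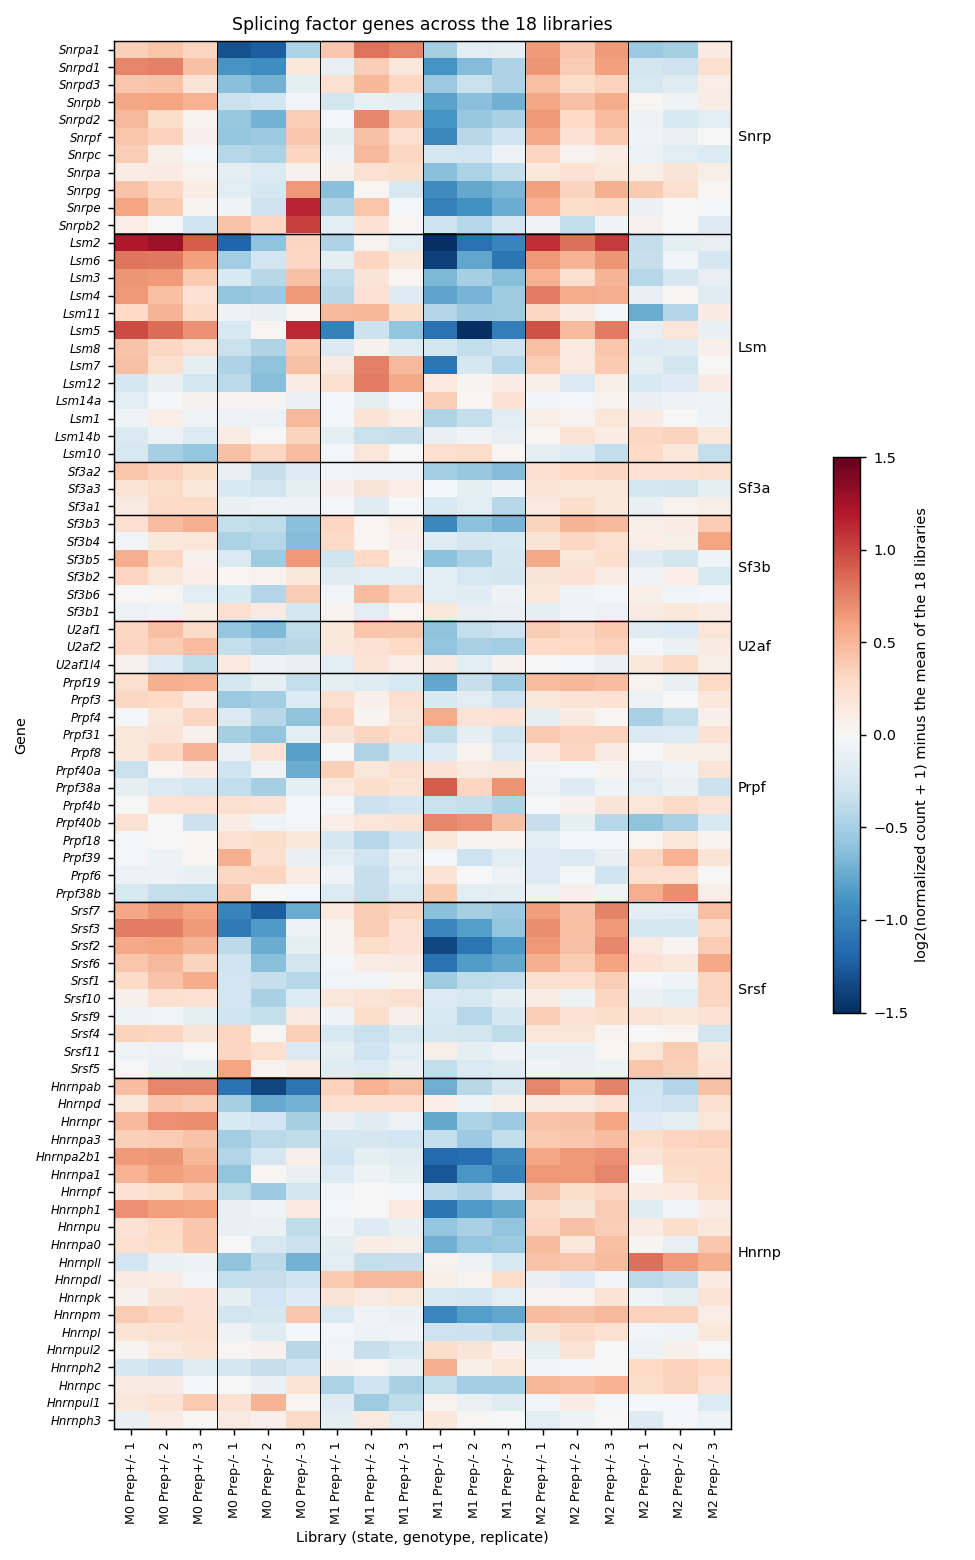
Normalised counts of the 79 tested members (rows, grouped by family) in the 18 libraries (columns, by state, genotype and replicate); colour gives log2(normalised count + 1) minus its mean over the 18 libraries. The Prep-/- M0 or M1 columns are the lowest for most rows, and replicate 3 of Prep-/- M0 departs from the other 2 replicates in short genes of the Lsm and Snrp families.

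Promoters were read for the members lower in all 3 states, as the 250 bases before the start of the canonical transcript on GRCm39 (GENCODE vM39), and were searched on both strands for 5 short motifs: the CCAAT box with the letters CCAAT, the ETS site with the letters CCGGAAG, the PU box with the letters GAGGAAG, the E-box with the letters CACGTG and the NRF1 site with the letters GCGCATG. The ETS and PU letters share their last 5 letters but cannot match at the same place. CCAAT was in 7 of the 17 promoters (41.2%), in 38.0% of the 79 promoters of tested members and in 35.9% of 11598 promoters of all protein-coding genes tested. GAGGAAG, a sequence bound by the macrophage factor PU.1, was in 1 of the 17 (5.88%), 10.1% of members and 11.01% of all promoters. CCGGAAG was in 2 of the 17 (11.8%), 13.9% of members and 10.5% of all. CACGTG was in 0 of the 17 and GCGCATG in 1, against 7.98% and 4.70% of all promoters and 8.86% and 6.33% of members. These shares are descriptions, and a match is not a site. Shown are the sequences of Hnrnpab, which fell most in M0, and of Prpf31 and Snrpa1, each with a CCAAT box near the start. Also shown is that of Srsf3, the only one of the 17 with GAGGAAG. Capitals mark the matches, which on the opposite strand read as the reverse complement. The sequences lie at chr11:51497743-51497992 (minus strand) for Hnrnpab, chr7:3632734-3632983 (plus) for Prpf31, chr7:65709600-65709849 (plus) for Snrpa1 and chr17:29251071-29251320 (plus) for Srsf3. The window of Srsf3 precedes its whole annotated gene. Those of Hnrnpab, Prpf31 and Snrpa1 lie inside the annotated gene, so other transcripts of these genes start further upstream and their promoters were not read. How many windows behind the shares lie inside their gene was not counted.
Hnrnpab: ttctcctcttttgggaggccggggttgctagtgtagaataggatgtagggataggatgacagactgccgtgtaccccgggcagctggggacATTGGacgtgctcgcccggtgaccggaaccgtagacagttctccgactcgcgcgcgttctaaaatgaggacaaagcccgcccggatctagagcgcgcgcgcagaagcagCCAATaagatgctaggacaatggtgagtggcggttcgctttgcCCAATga
Prpf31: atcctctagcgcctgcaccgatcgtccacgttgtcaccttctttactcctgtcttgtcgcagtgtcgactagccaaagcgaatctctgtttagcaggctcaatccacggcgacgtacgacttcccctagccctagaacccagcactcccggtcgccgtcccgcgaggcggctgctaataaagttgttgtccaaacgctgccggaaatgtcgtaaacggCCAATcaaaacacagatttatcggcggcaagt
Snrpa1: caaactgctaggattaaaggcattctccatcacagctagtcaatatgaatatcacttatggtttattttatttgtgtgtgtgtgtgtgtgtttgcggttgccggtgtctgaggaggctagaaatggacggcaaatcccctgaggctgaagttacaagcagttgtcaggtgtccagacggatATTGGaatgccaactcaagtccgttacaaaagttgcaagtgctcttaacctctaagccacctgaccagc
Srsf3: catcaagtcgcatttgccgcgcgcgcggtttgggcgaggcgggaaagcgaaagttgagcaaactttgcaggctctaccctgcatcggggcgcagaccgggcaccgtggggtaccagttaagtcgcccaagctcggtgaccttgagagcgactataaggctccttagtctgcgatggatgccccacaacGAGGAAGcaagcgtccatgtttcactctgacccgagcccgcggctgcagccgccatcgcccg
The windows of Lsm2 and U2af1, which also lie inside the annotated gene, held none of the 5 motifs.

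Among the Snrp genes, Snrpa1, which encodes the A' protein of the U2 snRNP, fell the most in M0. It was at 1053, 1096 and 1023 normalised counts in Prep+/- M0 and at 332, 347 and 592 in Prep-/- M0, a log2 fold change of -1.32 (SE 0.21, edgeR adjusted p = 9.69e-05). The groups did not overlap, and replicate 3 was the highest of the Prep-/- libraries. In M1 it was at 1086, 1440 and 1368 in Prep+/- against 583, 733 and 741 in Prep-/- libraries, and in M2 at 1279, 1089 and 1283 against 563, 580 and 891. The log2 fold changes were -0.92 (SE 0.21, edgeR adjusted p = 0.00318) and -0.84 (SE 0.21, edgeR adjusted p = 0.00671), and neither state overlapped. Snrpa1 lies at chr7:65708751-65724336 on GRCm39.

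Snrpb and Snrpd3, core proteins of the Sm ring, also fell in all 3 states. Snrpb was at 4298, 4326 and 4105 normalised counts in Prep+/- M0 and at 2303, 2354 and 2790 in Prep-/- M0, a log2 fold change of -0.77 (SE 0.09, edgeR adjusted p = 9.96e-06), followed by -0.54 in M1 and -0.50 in M2. Its paralogue Snrpn, a gene known for imprinted expression in neurons, was at the floor of detection here. Snrpd3 changed by -0.81 in M0, -0.80 in M1 and -0.46 in M2. Snrpd2, another ring protein, was at 1334, 2213 and 1784 in Prep+/- M1 and 720, 905 and 957 in Prep-/- M1, a log2 fold change of -1.05 (SE 0.24, edgeR adjusted p = 0.00346) with no overlap. Its M0 libraries did overlap, since Prep-/- replicate 3 stood at 1741 where replicates 1 and 2 stood at 907 and 822, and the change of -0.50 did not pass the test. For all 11 tested Snrp members the 3 Prep-/- M1 libraries lay below the 3 Prep+/- M1 libraries, and 8 of the 11 passed the test. Such a separation was found for 27.1% of all genes, and short genes as a whole were lower in M1 more often than long ones.

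Snrpb2, the B'' protein that partners the A' protein on U2 RNA, took the opposite direction in M0. It was at 1677, 1557 and 1275 normalised counts in Prep+/- M0 and at 2113, 1938 and 3192 in Prep-/- M0, a log2 fold change of 0.68 (SE 0.17, edgeR adjusted p = 0.00299). The groups did not overlap, the highest value was again replicate 3, and without it the change was 0.42. In M1 and M2 its values of -0.36 and 0.12 did not pass the test.

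In the Lsm family, Lsm2, Lsm3 and Lsm6, which belong to the rings on U6 RNA and on decaying messenger RNA, were lower in all 3 states. Lsm2 was at 1349, 1417 and 1098 normalised counts in Prep+/- M0 and at 256, 385 and 731 in Prep-/- M0, a log2 fold change of -1.49 (SE 0.27, edgeR adjusted p = 2.73e-04). The groups did not overlap, although Prep-/- replicate 3 lay well above replicates 1 and 2. In M1 Lsm2 was at 426, 608 and 522 in Prep+/- against 196, 269 and 294 in Prep-/- libraries, and in M2 at 1249, 1035 and 1216 against 454, 530 and 539. The changes were -1.04 in M1 (edgeR adjusted p = 0.00863) and -1.20 in M2 (edgeR adjusted p = 0.00352). Lsm6 changed by -0.86, -1.20 and -0.82 and Lsm3 by -0.59, -0.57 and -0.70, with -0.90 in M0 without Prep-/- replicate 3. The M0 libraries of Lsm3 overlapped, as Prep-/- replicate 3 stood at 1006 and Prep+/- replicate 3 at 972. Lsm3 was no longer lower in all 3 states without Prep-/- M0 replicate 1 or 2, nor in several other fits that left out 1 library. Lsm2 lies at chr17:35200838-35204868 on GRCm39.

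Lsm10, which replaces an Sm protein in the U7 snRNP of histone transcript processing, rose in M0. It was at 445, 373 and 351 normalised counts in Prep+/- M0 and at 715, 652 and 724 in Prep-/- M0, a log2 fold change of 0.84 (SE 0.15, edgeR adjusted p = 2.39e-04) with no overlap. It was not among the called members in M1 (0.13) or M2 (0.29). Lsm14a, a component of P-bodies, rose in M1 by 0.27 (SE 0.10, edgeR adjusted p = 0.0356), a call lost without Prep-/- M1 replicate 1, where the value was 0.17.

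Both subunits of U2AF were lower in all 3 states. U2af2, the large subunit that contacts the polypyrimidine tract, was at 3886, 4075 and 4316 normalised counts in Prep+/- M0 and at 2431, 2303 and 2347 in Prep-/- M0. The log2 fold change was -0.79 (SE 0.08, edgeR adjusted p = 2.84e-06), and the groups lay far apart. In M1 U2af2 was at 3482, 3663 and 3848 against 2072, 2230 and 2169, and in M2 at 3801, 3831 and 3971 against 3074, 2917 and 3423. The changes of -0.76 in M1 (edgeR adjusted p = 2.30e-05) and -0.30 in M2 (edgeR adjusted p = 0.0146) also came without overlap. U2af1, the small subunit that reads the AG at the 3' splice site, was at 1434, 1583 and 1404 in Prep+/- M0 against 770, 726 and 890 in Prep-/- M0, and changed by -0.89, -0.75 and -0.42. U2af1 lies at chr17:31866036-31878236 on GRCm39.

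The U2 snRNP complexes SF3A and SF3B were less uniform. Sf3b1, the largest SF3B subunit and a frequent target of mutation in myeloid disease, was at 4781, 4880 and 5377 normalised counts in Prep+/- M0 and at 6054, 5520 and 4218 in Prep-/- M0. The groups overlapped in M0, and its log2 fold changes of 0.07 (SE 0.12), 0.01 and 0.23 did not pass the test in any state. In M2 its Prep-/- libraries, at 5461 to 5653, all lay above its Prep+/- libraries, at 4604 to 4858. Sf3b3, another SF3B subunit, was at 2015, 2338 and 2468 in Prep+/- M0 against 1323, 1301 and 1090 in Prep-/- M0, a log2 fold change of -0.88 (SE 0.12, edgeR adjusted p = 3.82e-05). It fell by 0.91 in M1, and the M2 value of -0.24 did not pass the test. Sf3b4, which binds RNA beside the branch site, changed by -0.62 in M0 and -0.36 in M1, with a value of 0.03 in M2. Sf3a2 changed by -0.56 in M0 and -0.53 in M1, and Sf3a3 by -0.43 in M0 and -0.41 in M2.

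Of the Prpf genes, Prpf31, a U4/U6 snRNP protein known from retinitis pigmentosa, and Prpf19, the ubiquitin ligase of the PRP19 complex, were lower in all 3 states. Prpf31 was at 1718, 1751 and 1593 normalised counts in Prep+/- M0 and at 1078, 1012 and 1350 in Prep-/- M0, without overlap, and changed by -0.56, -0.53 and -0.41 on the log2 scale. Prpf19 changed by -0.69, -0.36 and -0.38. Several Prpf genes were higher. Prpf38b, a relative of the spliceosome activation factor Prpf38a, was at 1482, 1371 and 1355 in Prep+/- M0 and at 2327, 1762 and 1729 in Prep-/- M0, a log2 fold change of 0.47 (SE 0.16, edgeR adjusted p = 0.0259) that was matched by 0.49 in M2 (edgeR adjusted p = 0.0378). Prpf39, a U1-associated factor, was higher in M2 by 0.52 (SE 0.14, edgeR adjusted p = 0.0118), and Prpf40b and Prpf38a were higher in M1 by 0.47 and 0.44. Prpf31 lies at chr7:3632667-3645485 on GRCm39.

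Srsf7 and Srsf3, closely related SR proteins, were the SR genes lower in all 3 states. Srsf7 was at 1908, 2021 and 1937 normalised counts in Prep+/- M0 and at 646, 544 and 762 in Prep-/- M0, a log2 fold change of -1.59 (SE 0.15, edgeR adjusted p = 1.52e-06). The highest Prep-/- library was well under the lowest Prep+/- library. In M1 it was at 1413, 1674 and 1599 against 826, 907 and 878, a log2 fold change of -0.84 (SE 0.15, edgeR adjusted p = 7.81e-04). In M2 it was at 1984, 1732 and 2145 against 1159, 1150 and 1752, and the change of -0.53 (edgeR adjusted p = 0.0176) passed although Prep-/- replicate 3 reached into the range of Prep+/-.

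Srsf3 was at 5634, 5605 and 5139 normalised counts in Prep+/- M0 and at 1578, 1832 and 3118 in Prep-/- M0, a log2 fold change of -1.33 (SE 0.21, edgeR adjusted p = 9.28e-05). The groups did not overlap, with replicate 3 the highest of its group. In M1 the change was -1.02 (edgeR adjusted p = 0.00170) and in M2 -0.65 (edgeR adjusted p = 0.0300). Srsf2, which is mutated in myeloid neoplasms, had the deepest fall of the family in M1. It was at 4120, 4811 and 4616 in Prep+/- M1 and at 1538, 1862 and 2184 in Prep-/- M1, a log2 fold change of -1.28 (SE 0.15, edgeR adjusted p = 4.50e-05). Srsf5 went the other way, with 4454, 4167 and 4037 in Prep+/- M0 against 6717, 4604 and 4788 in Prep-/- M0, a log2 fold change of 0.35 (SE 0.12, edgeR adjusted p = 0.0259), and 0.40 in M2 (edgeR adjusted p = 0.0237). The M0 call on Srsf5 was lost without Prep-/- replicate 1, where the value was 0.16. Srsf3 lies at chr17:29251321-29262347 on GRCm39.

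Hnrnpab, which encodes the A/B-type RNA-binding protein also known as CBF-A, showed the deepest M0 fall among the members. It was at 8295, 9985 and 9907 normalised counts in Prep+/- M0 and at 2786, 2337 and 2817 in Prep-/- M0, a log2 fold change of -1.83 (SE 0.19, edgeR adjusted p = 2.37e-06). The 2 groups were far apart. In M1 it was at 7636, 8620 and 8239 in Prep+/- against 3617, 4517 and 5058 in Prep-/- libraries, a log2 fold change of -0.89 (SE 0.18, edgeR adjusted p = 0.00186). In M2 it was at 9956, 8862 and 10032 against 4902, 4421 and 8135, a log2 fold change of -0.72 (SE 0.18, edgeR adjusted p = 0.00866). Replicate 3 of Prep-/- M2 was nearer to the Prep+/- libraries than to its own group. Hnrnpab lies at chr11:51487363-51510327 on GRCm39.

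Hnrnpa2b1, the most abundant member, was at 17147, 17443 and 15565 normalised counts in Prep+/- M0 and at 8085, 9228 and 11575 in Prep-/- M0, a log2 fold change of -0.80 (SE 0.12, edgeR adjusted p = 5.33e-05). Hnrnpa1, its paralogue and a repressor of exon use, was at 5946, 6335 and 6155 against 2735, 4170 and 3832, a log2 fold change of -0.78 (SE 0.14, edgeR adjusted p = 2.58e-04). Neither gene overlapped between genotypes in M0. They changed by -0.89 and -0.91 in M1 and by -0.38 and -0.48 in M2. The value of Hnrnpa1 is uncertain to the extent that reads were shared with similar genes. Transcripts of 19 other annotated genes held a stretch of at least 300 bases at 90% identity or more. Hnrnpr and Hnrnph1, a regulator of G-rich sites, were lower throughout: Hnrnpr changed by -0.96, -0.47 and -0.53 in the 3 states and Hnrnph1 by -0.64, -0.94 and -0.32. Hnrnph2 rose in M1 and M2, by 0.28 (edgeR adjusted p = 0.0395) and 0.33 (edgeR adjusted p = 0.0243), and Hnrnpul2 rose in M1 by 0.39 (edgeR adjusted p = 0.0269).

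**Figure D4:**
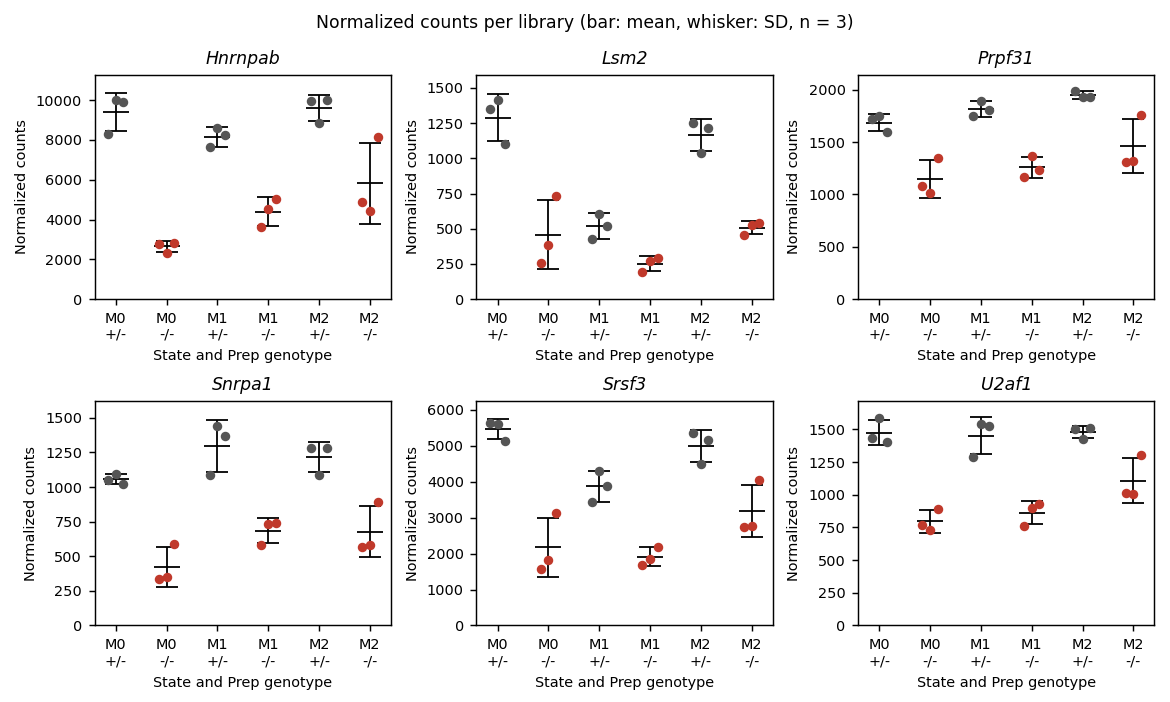
Normalised counts (y axis, from 0) of members the text turns on, 1 panel each, in every library by state and Prep genotype (x axis), with grey points for Prep+/-, red points for Prep-/- and bars and whiskers for the mean and SD (n = 3). The panels are Hnrnpab, Lsm2, Prpf31, Snrpa1, Srsf3 and U2af1. Genotypes do not overlap in M0 in any panel, and Hnrnpab separates widely there.

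An interaction term tested whether the knockout effect changed from state to state. The effect in M1 differed from that in M0 for 12 members, being higher in M1 for 9 and lower for 3, against 13.7% and 10.9% of all genes. The effect in M2 was higher than in M0 for 13 members, against 5.16% of all genes, and lower for 0, against 4.48%; 2 members were lower at an unadjusted edgeR p below 0.05 and 0 by DESeq2. Both interactions use the same M0 libraries. Hnrnpab differed by 0.94 in M1 (SE 0.26, edgeR adjusted p = 0.0159) and by 1.10 in M2 (SE 0.26, edgeR adjusted p = 0.0155), and Srsf7 by 0.74 and 1.06, so both genes fell less from Prep+/- to Prep-/- in the stimulated states. Hnrnpa3, an A-type Hnrnp, was at 1540, 1566 and 1618 normalised counts in Prep+/- M0 against 834, 909 and 920 in Prep-/- M0, but at 1003, 1010 and 982 against 935, 820 and 929 in M1. Its differences were 0.67 (edgeR adjusted p = 6.26e-04) in M1 and 0.72 (edgeR adjusted p = 0.00132) in M2, and 39 near-identical copies of its sequence make its counts uncertain. Snrpb2 had the largest difference in the negative direction, -1.04 in M1 (SE 0.24, edgeR adjusted p = 0.00500).

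The M2 interaction count depended on the M0 and M2 libraries left out: 5 members were higher without Prep+/- M0 replicate 2, 4 without Prep+/- M0 replicate 3, 8 without Prep+/- M2 replicate 1, 5 without Prep+/- M2 replicate 2 and 20 without Prep-/- M0 replicate 3, and 1 was lower without Prep-/- M2 replicate 1. In the M1 interaction 5 were higher without Prep+/- M1 replicate 2, 1 was lower without Prep+/- M0 replicate 3 and 6 were lower without Prep-/- M0 replicate 2.

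LPS lowered members in both genotypes more often than it raised them. In Prep+/- BMDMs 30 members were lower in M1 than in M0 and 5 higher, against 27.3% and 24.8% of all genes, with a median log2 fold change of -0.17 against -0.03 over all genes. In Prep-/- BMDMs 31 were lower and 11 higher, against 27.8% and 29.3%, with medians of -0.21 and 0.00. The number higher in Prep+/- was 1 without M1 replicate 2 and 3 without M1 replicate 3. Hnrnp had 12 of 20 members lower in Prep+/- and 9 in Prep-/-, and Lsm 5 and 8 of 13. U2af had 0 of 3 in either direction in both genotypes, also at an unadjusted edgeR p below 0.05 and by DESeq2.

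Lsm5, a U6 ring protein, was at 427, 388 and 348 normalised counts in Prep+/- M0 and at 106, 173 and 142 in Prep+/- M1, a log2 fold change of -1.47 (SE 0.28, edgeR adjusted p = 3.72e-04). In Prep-/- it was at 184, 220 and 472 in M0 and 99.0, 74.7 and 105 in M1, a log2 fold change of -1.65 (SE 0.29, edgeR adjusted p = 1.43e-04). The states did not overlap in either genotype. Lsm12, which carries an Lsm fold but belongs to none of these rings, rose in Prep+/- by 0.74 (SE 0.17, edgeR adjusted p = 0.00143). Hnrnpa2b1 fell by 0.81 in Prep+/- and by 0.90 in Prep-/- BMDMs. Snrpe, a Sm ring protein, fell by 1.298 in Prep-/- BMDMs (SE 0.29, edgeR adjusted p = 0.00122), from 997, 834 and 2299 to 512, 550 and 618 normalised counts, and by 0.74 without Prep-/- M0 replicate 3 (edgeR adjusted p = 0.00524). Prpf38a rose in both genotypes, from 711, 676 and 664 to 876, 951 and 911 in Prep+/- (log2 fold change 0.42) and from 612, 559 and 714 to 1482, 984 and 1254 in Prep-/- (log2 fold change 0.98). Hnrnpab rose with LPS in Prep-/- BMDMs by 0.73 (SE 0.18, edgeR adjusted p = 0.00287), from the low M0 libraries given above, and was at -0.20 in Prep+/-.

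IL-4 and IL-13 changed few members in Prep+/- BMDMs: 3 were higher and 1 lower, against 9.35% and 9.06% of all genes. Hnrnpll, a regulator of CD45 splicing in lymphocytes, was at 1030, 1166 and 1190 normalised counts in M0 and at 1683, 1660 and 1744 in M2, a log2 fold change of 0.59 (SE 0.11, edgeR adjusted p = 0.00104) with no overlap. Hnrnpc and Srsf9 rose by 0.42 and 0.37, and Hnrnph1 fell by 0.34 (SE 0.11, edgeR adjusted p = 0.0358). The lower count was 0 without each Prep+/- M0 library in turn and without Prep+/- M2 replicate 1 or 2.

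In Prep-/- BMDMs, IL-4 and IL-13 raised 26 members and lowered 4, against 22.1% and 21.7% of all genes, with a median log2 fold change of 0.17 against -0.02. The higher members included 9 of 20 Hnrnp and 7 of 10 Srsf, but 0 of 13 Lsm, also at an unadjusted edgeR p below 0.05 and by DESeq2. This comparison rests on the same Prep-/- M0 libraries as the M0 knockout comparison. Hnrnpll went from 825, 957 and 769 in M0 to 2219, 1959 and 1817 in M2, a log2 fold change of 1.23 (SE 0.11, edgeR adjusted p = 2.21e-07). In M2 its Prep-/- libraries lay above all 3 Prep+/- libraries, but that difference of 0.24 did not pass the test. Hnrnpab and Srsf7 rose by 1.14 and 1.06, to M2 levels that stayed below those of Prep+/- M2 apart from the overlap in Srsf7 noted above. Snrpb2 fell by 0.66 (edgeR adjusted p = 0.00426), and by 0.41 without Prep-/- M0 replicate 3. Hnrnpul1 fell by 0.35 (edgeR adjusted p = 0.0293), a call lost without Prep-/- M0 replicate 2, where the value was -0.23. When only the groups compared were fitted, 10 members were higher and 0 lower.

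Splicing genes outside the families were read from 7 lists of 129 genes, of which 126 were tested. For comparison, 24.2%, 16.6% and 13.1% of all genes tested were lower and 24.3%, 19.7% and 11.6% higher in Prep-/- M0, M1 and M2. A list of 12 genes held the SMN complex, which loads Sm proteins onto small nuclear RNA, and also Clns1a, Prmt5 and Wdr77. Of these 12, 10, 9 and 1 were lower in Prep-/- M0, M1 and M2. In the same list 0 were higher, also at an unadjusted edgeR p below 0.05 and by DESeq2. Of 33 helicases and PRP19-related proteins, 10, 7 and 4 were lower and 4, 2 and 2 higher, with lower shares not far from those of all genes. Of 12 genes named Snrnp or listed with them (Sart1, Sart3, Usp39, Txnl4a and Ppih), 6, 4 and 2 were lower, and 1 higher in M0. Of 11 exon junction complex genes, 4, 7 and 3 were lower. Of 41 other splicing regulators, 17, 17 and 8 were lower and 3, 3 and 1 higher. Of 9 minor spliceosome genes, 4, 2 and 1 were higher and 0, 1 and 0 lower. Their higher share was 44.4% in M0, where 24.3% of all genes were higher, but 22.2% in M1 and 11.1% in M2, near the 19.7% and 11.6% of all genes, and their median log2 fold change was 0.25, -0.16 and 0.15. Of 8 SR protein kinases 2, 3 and 1 were higher and 2, 0 and 0 lower; for the zeros of these 2 lists DESeq2 also gave 0, and an unadjusted edgeR p below 0.05 was reached by 1 minor spliceosome gene in M0 and 1 kinase in M2.

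The largest falls in these lists were those of Rbfox2, a regulator of alternative exons, by 1.85, 1.74 and 1.32 on the log2 scale in M0, M1 and M2, and of Alyref, an mRNA export adaptor, by 1.61, 1.06 and 0.93. Rbfox2 was low in abundance, at 77.2, 81.8 and 81.4 normalised counts in Prep+/- M0 against 19.1, 27.5 and 19.5 in Prep-/- M0. Ddx39a, an export and splicing helicase, fell by 1.54, 1.33 and 0.75. Gemin6 of the SMN complex fell by 1.47 in M0. Among higher genes, Scnm1, a minor spliceosome factor, changed by 0.67, 0.49 and 0.33, and Clk1, a kinase of SR proteins, by 0.85 in M0 (SE 0.19, edgeR adjusted p = 0.00151). Srpk1, another SR kinase, fell by 0.89 in M0.

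Because Prep-/- M0 replicate 3 was high in short transcripts, counts were also read by transcript length. Among 35 members of 1000 to 3000 bases, 57.1% were lower in Prep-/- M0 against 24.9% of all genes of that length, and among 38 members of 3000 bases or more 44.7% against 25.2%. In M1 the shares were 68.6% against 22.6% and 36.8% against 12.5%. In M2 they were 40% against 15.3% and 10.5% against 12.2%, the latter a share near that of all long genes. Among the 6 members under 1000 bases, 33.3%, 50% and 16.7% were lower in M0, M1 and M2, against 9.63%, 21.2% and 8.91% of all genes. In M1 the knockout effect moved with length over all genes: 4.99% of those under 1000 bases were higher, with a median log2 fold change of -0.33. Of those of 3000 bases or longer 24.2% were higher, with a median of 0.13. The cause of this trend was not tested. With an offset for transcript length, added after the data were seen, 46, 45 and 24 members were lower in M0, M1 and M2.

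**Figure D5:**
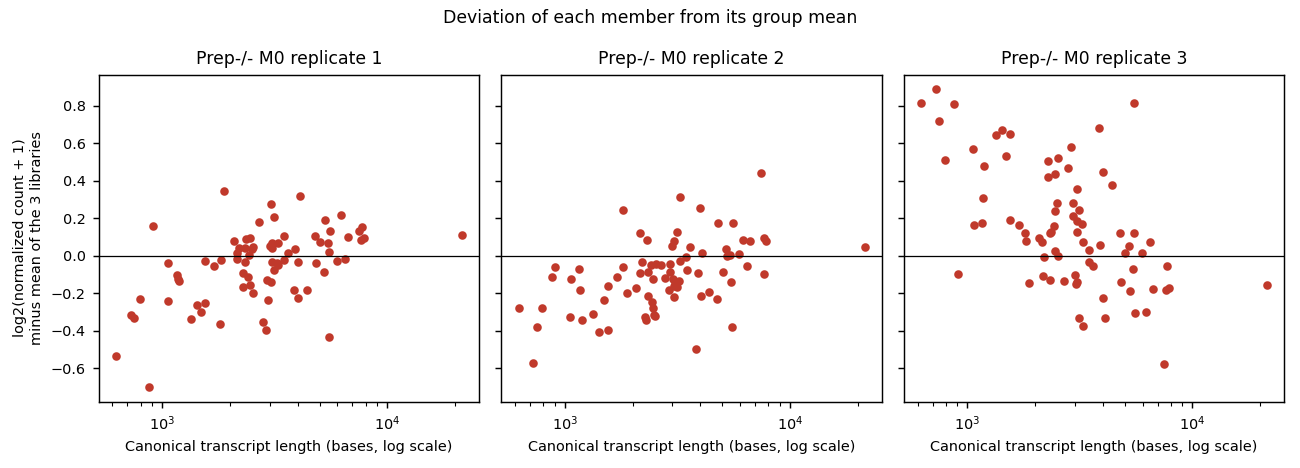
Deviation of each tested member from its group mean (y axis, log2(normalised count + 1) minus the mean of the 3 libraries) against canonical transcript length (x axis, bases, log scale) in the 3 Prep-/- M0 libraries, 1 panel each; each point is a member. In replicate 3 the shortest members lie highest, with a median of 0.76 for the 6 members under 1000 bases, and in replicates 1 and 2 they lie below 0.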

How the data were processed

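RNA from 18 BMDM libraries (3 biological replicates in each of 6 groups of Prep genotype and state, assigned from the labels) was sequenced with a strand-marking mRNA kit. According to the study's methods and the submitters' processing notes, reads were trimmed with Trimmomatic 0.36, aligned to GRCm39 with HISAT2 2.2.1.0 and assembled with StringTie. The authors deposited a table of counts per gene symbol for 16314 symbols. The annotation release, strand setting and treatment of reads with several alignments are not given in the sources used here.

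Counts were fitted in R 4.3.3 with edgeR 4.0.16 (limma 3.58.1): filterByExpr kept 12021 genes, TMM factors were computed, all 18 libraries entered a quasi-likelihood fit with 1 coefficient per group, and Benjamini-Hochberg adjustment covered all genes tested. A call means an adjusted p below 0.05. Total counts of 19068237 to 22598279 per library limit the precision of members with few reads, and SDs and p-values measure the spread between these libraries. Within every group, replicate libraries differed by more than sampling noise. DESeq2 1.42.0, DESeq2 size factors, no filter, a filter of 1 CPM in 3 libraries, fits of the compared groups alone, replicate blocks, leaving out each library and a transcript length offset were alternatives. The fits were tested on simulated data. Same-numbered libraries deviated together from their group means in the M2 knockout comparison (correlations 0.249, 0.255 and 0.462) and in the LPS response of Prep-/- (0.201, 0.169 and 0.259). Other comparisons did not meet this in all 3 numbers. What a number marks is not given. Pairing entered only through the replicate blocks, which were alternatives. Unless a block is named, calls and adjusted p-values come from fits without pairing, also for the M2 knockout comparison and the LPS response of Prep-/-.

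Members and gene lists were chosen with earlier results of these data known. Named genes were, per comparison and family, the called member with the largest rise and fall at a mean of at least 5 CPM, members called in 1 direction in all 3 knockout comparisons or in an interaction, members that missed the filter, and Snrpb, Snrpn, U2af1, U2af2, Sf3b1, Hnrnpa1 and Hnrnpa2b1; of the other lists, the called genes with the largest rise and fall. Positions and promoters came from GENCODE vM39 on GRCm39, to which all 81 members were matched. Copies were searched with blastn 2.17.0 among annotated transcripts only. Per-kb levels used the canonical transcript. Of the members, 63 overlap another annotated gene. For 32, a transcript of an annotated gene elsewhere held a stretch of at least 300 bases at 90% identity or more.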

Additional observations from a re-analysis of the deposited data

Results flagged for a closer look

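The knockout effect of 12 members differed between M1 and M0 by the interaction test of edgeR's quasi-likelihood fit, and that of 13 between M2 and M0. In M1, 11.4% of the 79 members differed upward and 3.80% downward, against 13.7% and 10.9% of all genes, so members differed no more often than genes as a whole. In M2, 16.5% differed upward and 0% downward, against 5.16% and 4.48% of all genes. Each value is the log2 fold change of Prep-/- over Prep+/- in the stimulated state minus that in M0, and both sets of values use the same M0 libraries.

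In M1 the differences were 0.67 for Hnrnpa3, 0.94 for Hnrnpab, 0.77 for Hnrnpd, 0.61 for Hnrnpll, 0.50 for Hnrnpr, 0.62 for Hnrnpul2, 0.56 for Prpf38a, 0.71 for Prpf4 and 0.74 for Srsf7. They were negative for 3 members, at -0.71 for Lsm10, -0.48 for Snrpa and -1.04 for Snrpb2. The edgeR adjusted p ranged from 6.26e-04 to 0.036.

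In M2 the differences were 0.72 for Hnrnpa3, 1.10 for Hnrnpab, 0.71 for Hnrnpd, 0.52 for Hnrnpf, 0.65 for Hnrnpll, 0.49 for Prpf3, 0.50 for Sf3a2, 0.63 for Sf3b3, 0.65 for Sf3b4, 0.58 for Srsf1, 0.62 for Srsf6, 1.06 for Srsf7 and 0.49 for U2af2. The edgeR adjusted p ranged from 0.00132 to 0.0488. Hnrnpa3, Hnrnpab, Hnrnpd, Hnrnpll and Srsf7 are in both sets. Prep-/- M0 replicate 3, which was high in short transcripts, enters every one of these differences, and without it 20 members differed in M2.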

How the results depend on the processing

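In all alternatives run, more members were lower than higher in each knockout comparison. Against 39, 41 and 19 lower and 7, 6 and 5 higher members in Prep-/- M0, M1 and M2, leaving out 1 library gave 37 to 51, 31 to 43 and 7 to 26 lower and 3 to 8, 1 to 5 and 1 to 8 higher. The same ranges were 24 to 29 lower and 1 to 6 higher for LPS in Prep+/-, 26 to 32 and 9 to 13 in Prep-/-, 0 to 1 and 2 to 2 for IL-4 and IL-13 in Prep+/-, 3 to 4 and 19 to 35 in Prep-/-, and 1 to 6 lower and 5 to 13 higher for the M1 and 0 to 1 lower and 4 to 20 higher for the M2 interaction. Fits of the compared groups alone gave 4 higher in M0, 3 higher in M2, 7 higher for IL-4 and IL-13 in Prep+/-, 10 higher and 0 lower in Prep-/-, and 4 higher for the M2 interaction. When the replicate number was a block and those groups alone were fitted, 1 member was higher and 26 were lower in M0. In the same fits 29 were lower in M2, and 3 were higher for the M2 interaction. For IL-4 and IL-13, 7 were higher and 2 lower in Prep+/-, and 12 higher and 0 lower in Prep-/-. As a block over all libraries, 20 were lower in M2, and the block moved no other count by more than 1.5 times. Without the filter on low counts 3 members were higher in M1 and 0 lower for IL-4 and IL-13 in Prep+/-. The M1 interaction had 5 lower members by DESeq2 and 6 with the transcript length offset. The cause of these changes was not tested. Sf3b1, not called in any state, ranged from -0.040 (without Prep-/- replicate 1) to 0.20 (without Prep-/- replicate 3) in M0 when 1 library was left out, and in M1 turned to -0.023 by DESeq2 and with its size factors, -0.0071 with at least 1 CPM in 3 libraries, -0.15 with the length offset, -0.0087 in M1 alone, -0.011 with the block in M1 alone, and to -0.063 and -0.097 without Prep+/- replicate 2 and Prep-/- replicate 1, the highest value being 0.048 without Prep-/- replicate 2. Of 128 calls on named members, 0 were lost by DESeq2 or with at least 1 CPM in 3 libraries, 3 with DESeq2 size factors, 6 with the length offset, 8 without the filter, 1 with the block over all libraries, 26 each in the fits of the compared groups alone with and without the block, and 187 of 918 when each call was refitted without each of its libraries in turn. Members lower in all 3 states numbered 6 to 26 when 1 library was left out.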

Other observations

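The following members are outside the naming rule and were chosen after their values were seen. Each passed the knockout test in 1 state, but the difference of its effect between M1 and M0 did not pass the interaction test, at -0.42 for Hnrnpm, -0.51 for Lsm11, -0.70 for Lsm7 and 0.61 for Prpf8 on the log2 scale. Hnrnpm, an abundant Hnrnp protein, was at 3796, 4265 and 4148 normalised counts in Prep+/- M1 and at 2244, 2502 and 2575 in Prep-/- M1, a log2 fold change of -0.74 (SE 0.15, edgeR adjusted p = 0.00136), and at -0.32 in M0 and -0.20 in M2, which did not pass the test. Its M0 libraries overlapped, as Prep-/- replicate 3 stood at 5841 and replicates 1 and 2 at 3667 and 3690. Lsm11, the partner of Lsm10 in the U7 snRNP, fell in M1 by 0.93 (SE 0.18, edgeR adjusted p = 0.00104), from 309, 312 and 265 to 162, 150 and 152 normalised counts. Its values of -0.42 in M0 and -0.45 in M2 had the same sign and did not pass the test. Lsm10 was at 0.13 in M1 and did not pass the test. Lsm7, a protein of the U6 ring, fell in M1 by 1.03 (SE 0.26, edgeR adjusted p = 0.00696). Prpf8, the large protein at the centre of the spliceosome, was at 3609, 3992 and 4608 in Prep+/- M0 and at 3009, 3728 and 1838 in Prep-/- M0, a log2 fold change of -0.51 (SE 0.19, edgeR adjusted p = 0.0337) although the groups overlapped.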
